A study of Mus musculus with 48 samples.

Results

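Stat2, Mx1, Psmb8, H2-T23, H2-D1 and B2m are 6 genes of interferon signalling and MHC class I antigen presentation on the nCounter Glial panel. The genes were taken by name, and all 6 were found among the 757 genes of the panel's table. Cortical total RNA of 24 mice, all 7.5 months old, was hybridised to barcoded probes, and the barcodes were counted directly. The 5xFAD transgenes, present in all 24, are mutant human genes of familial Alzheimer disease, expressed in neurons from the Thy1 promoter, and lead to plaques of amyloid. The label 5xFAD Plcg2 KO+/- (Plcg2+/- here) was borne by 12 mice, 6 of each sex, and the label 5xFAD by the 12 controls, again 6 of each sex. Plcg2 encodes phospholipase C gamma 2, a signalling enzyme that in the brain is found mainly in microglia. The labels give neither the strain background nor the origin of the knockout allele. The same 24 animal numbers were also run on the nCounter Neuropathology panel, which holds 1 of the 6 genes, Psmb8.

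Interferons bind receptors at the cell surface and activate Janus kinases, which phosphorylate STAT proteins. STAT2 and IRF9 belong to the complex that binds interferon-stimulated response elements and switches on antiviral genes such as Mx1. Interferon also induces the machinery of MHC class I presentation, in which the immunoproteasome cuts proteins into peptides, the TAP transporter carries them into the endoplasmic reticulum, and a class I heavy chain paired with beta 2 microglobulin shows them to CD8+ T cells and natural killer cells. In the amyloid-bearing brain, interferon-responsive microglia and class I expression are well known, and microglia are a main source of class I transcripts.

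The promoters of the members, which share control by interferon, are shown as a description. No interferon response element is marked in them, and their part in the differences below was not tested. Sequences are RefSeq's on GRCm38.p6, read 5′ to 3′ in the direction of the gene, and the table held an entry for 5 of the 6 genes, all but Mx1. Each is given as the 100 bases just before the annotated start, at chr10:128270398-128270497 for Stat2, chr2:122147587-122147686 for B2m, chr17:34198095-34198194 for Psmb8 and chr17:35262994-35263093 for H2-D1, all on the plus strand, and at chr17:36032702-36032801 on the minus strand for H2-T23. Capitals mark CG dinucleotides, which read the same on both strands and are the sites of DNA methylation in mammals.
Stat2: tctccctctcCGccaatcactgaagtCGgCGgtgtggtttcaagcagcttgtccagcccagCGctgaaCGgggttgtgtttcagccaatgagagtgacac
H2-T23: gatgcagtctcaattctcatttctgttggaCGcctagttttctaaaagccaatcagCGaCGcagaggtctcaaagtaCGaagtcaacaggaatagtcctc
B2m: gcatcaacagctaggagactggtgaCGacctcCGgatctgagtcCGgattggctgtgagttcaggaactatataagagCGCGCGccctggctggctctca
Psmb8: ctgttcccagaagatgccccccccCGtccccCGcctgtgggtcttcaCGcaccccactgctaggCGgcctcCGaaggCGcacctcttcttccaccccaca
H2-D1: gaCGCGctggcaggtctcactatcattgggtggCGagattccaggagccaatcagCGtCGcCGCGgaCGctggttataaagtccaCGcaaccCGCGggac

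These windows held 5 CG dinucleotides in Stat2, 4 in H2-T23, 6 in B2m, 6 in Psmb8 and 11 in H2-D1. Over 32851 such windows of 27025 mouse genes the median was 3 (quartiles 1 and 8), and 79.3% held at least 1. H2-D1 lay above the upper quartile and the other 4 between the median and that quartile. The class I heavy chain genes H2-T23 and H2-D1 had 45% and 62% G and C in this window, beside a median of 55% over all windows. These values describe letters only, and neither methylation nor binding was measured.

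Values are log2 normalized counts, and each difference below is the mean of Plcg2+/- mice less that of 5xFAD mice on this log2 scale ± its standard error in a limma fit, with Benjamini-Hochberg adjusted p over all genes of the panel. A gene is called at an adjusted p under 0.05. Barcode totals per mouse on the Glial panel were between 953461 and 1239109 in 5xFAD females and between 1773331 and 1897264 in Plcg2+/- females, without overlap, and they overlapped in males (1428825 to 1775622 and 1360757 to 1814975). Animal numbers ran from 3 to 51 among Plcg2+/- mice and from 1177 to 1270 among 5xFAD mice, and a cohort effect cannot be told apart from genotype. Plcg2 itself was not analysed here. Markers of neurons, astrocytes, oligodendrocytes, microglia and endothelial cells were all measured, each with a mean above 20 normalized counts. Markers of T cells and cytotoxic lymphocytes were at lower levels, with 13 of 14 under 20 normalized counts (called dim here).

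Over both sexes, the members moved in different directions in Plcg2+/- cortex. Stat2 and Mx1 were higher, the immunoproteasome gene Psmb8 and the nonclassical class I gene H2-T23 were lower, and H2-D1 and B2m, the classical heavy chain and its light chain, did not pass the test. Thus 4 of 6 genes were called, beside 60.5% of all Glial panel genes (33.8% called higher and 26.7% called lower). In females 5 of 6 genes were called, 3 higher and 2 lower, beside 54.8% of the panel (34.5% higher and 20.3% lower). In males 1 of 6 was called, which was lower, beside 40.7% (17.2% higher and 23.5% lower). These shares lie near or on either side of the panel's own, so the counts say nothing particular about the 6 genes. Fewer cells of a type and less RNA per cell cannot be told apart in RNA from whole cortex.

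**Figure D1:**
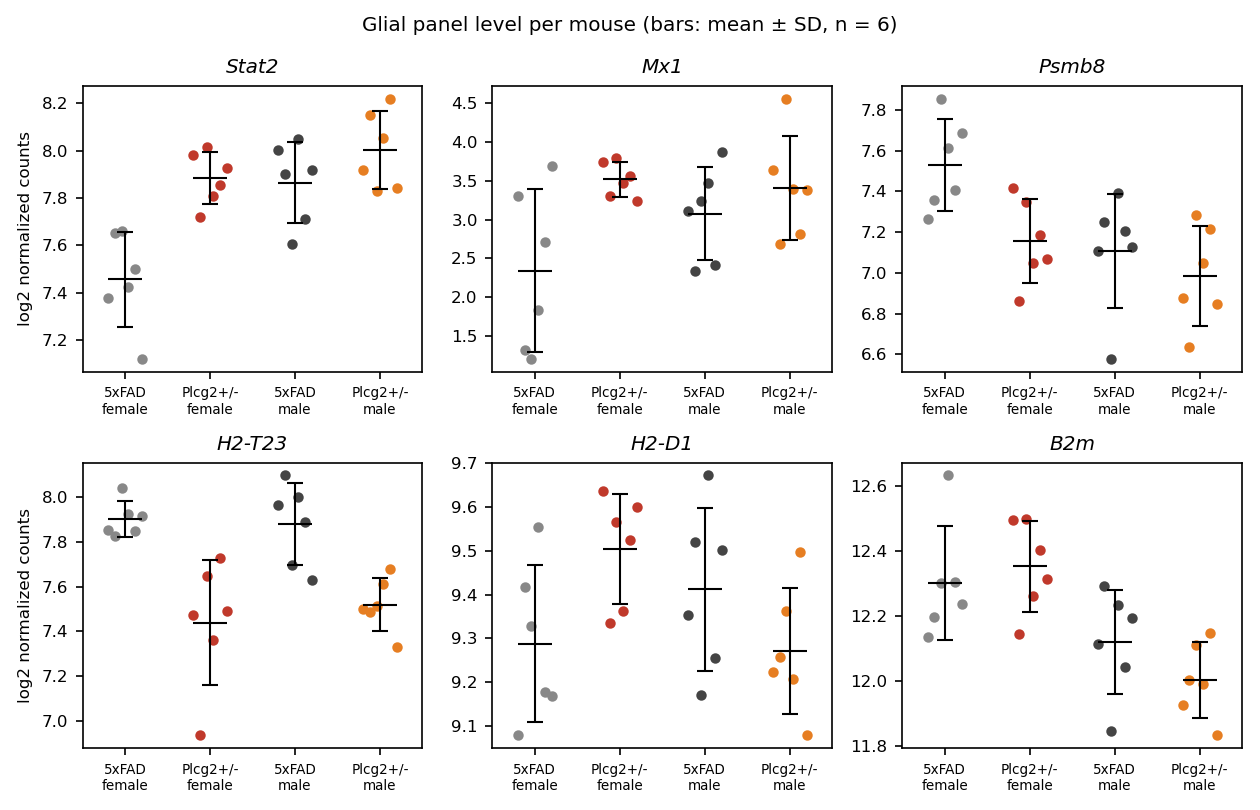
Log2 normalized counts of the 6 genes on the Glial panel in each mouse, by group, with bars for the mean ± SD (n = 6 mice per group, each panel with its own axis range). The females separate without overlap for Stat2 (Plcg2+/- higher) and for H2-T23 (Plcg2+/- lower), and the male genotypes overlap for all 6 genes.

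Stat2 (chr10:128270498-128292853, GRCm38.p6), the signal transducer of type I and type III interferon receptors, was 7.12, 7.46 and 7.66 on the log2 scale at the lowest, median and highest 5xFAD female and 7.72, 7.89 and 8.01 in Plcg2+/- females. In males it was 7.61, 7.91 and 8.05 in 5xFAD mice and 7.83, 7.99 and 8.22 in Plcg2+/- mice. All Plcg2+/- females thus lay above all 5xFAD females, while the male groups overlapped, and the 5xFAD females formed the low group of the 4. The other 3 group medians differed by less than the range of mice within any of these groups. The difference over both sexes was 0.28 ± 0.066 (adjusted p = 0.00091, 10 of 12 Plcg2+/- mice above the 5xFAD mean of their sex). In females it was 0.43 ± 0.094 (adjusted p = 0.000571), a 1.35-fold higher level, and in males 0.14 ± 0.094 (adjusted p = 0.241, 4 of 6 mice). The female and male differences were 0.29 ± 0.13 apart, which did not pass (adjusted p = 0.117). With each mouse's log2 total count as a covariate, the difference over both sexes was 0.12 ± 0.13 (adjusted p = 0.579), with a wider standard error. Totals did not overlap between genotypes in females, so depth and genotype cannot be told apart there.

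Mx1 (chr16:97447035-97462906), which encodes an interferon-induced GTPase of the dynamin family, was dim. Its recovered counts were 2 to 11 barcodes in 5xFAD females, 13 to 19 in Plcg2+/- females, 5 to 13 in 5xFAD males and 7 to 21 in Plcg2+/- males. As log2 normalized counts the lowest, median and highest mouse were 1.20, 2.27 and 3.70 among 5xFAD females, 3.24, 3.52 and 3.79 among Plcg2+/- females, 2.34, 3.18 and 3.87 among 5xFAD males, and 2.69, 3.38 and 4.56 among Plcg2+/- males. All 4 groups overlapped on this normalized scale, and the 5xFAD females again held the lowest mice. The difference was 0.75 ± 0.27 over both sexes (adjusted p = 0.0195, 10 of 12 mice), 1.18 ± 0.38 in females (adjusted p = 0.0122) and 0.33 ± 0.38 in males (adjusted p = 0.503). The 65 dim genes of the panel had a median difference of 0.59, with 37 called higher and 0 lower, against a median of 0.04 over all 757 genes. The difference of Mx1 was 0.06 after quantile normalization (adjusted p = 0.852) and, with every value below 20 raised to that floor, 0.02 (adjusted p = 0.436). It was larger with log2 total count as a covariate, 1.98 over both sexes (adjusted p = 0.00698) and 3.62 in females (adjusted p = 0.013).

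H2-T23 (chr17:36029977-36032701) encodes the heavy chain of Qa-1, a nonclassical class I molecule that presents leader peptides of other class I chains to the inhibitory receptor CD94/NKG2A of natural killer cells and CD8+ T cells. Its log2 values were 7.83, 7.88 and 8.04 at the lowest, median and highest 5xFAD female and 6.93, 7.48 and 7.73 in Plcg2+/- females. In males they were 7.63, 7.93 and 8.10 in 5xFAD mice and 7.33, 7.51 and 7.68 in Plcg2+/- mice. The female groups did not overlap, the male groups overlapped narrowly, and the medians of the sexes were alike within each genotype. H2-T23 fell by 0.41 ± 0.072 over both sexes (adjusted p = 5.21e-05, all 12 Plcg2+/- mice below the 5xFAD mean of their sex), to 0.751 of the 5xFAD level. It fell by 0.46 ± 0.10 in females (adjusted p = 0.00061) and by 0.36 ± 0.10 in males (adjusted p = 0.0085), and the sexes differed by -0.10 ± 0.14 (adjusted p = 0.644). With log2 total count as a covariate the fall was 0.61 (adjusted p = 0.00644). Probe sequences were not used here, so counts from a related class I gene cannot be told apart from those of H2-T23. Stat2 and H2-T23 were the 2 of 6 genes whose genotypes did not overlap in females, beside 26.6% of all genes, and in males there were 0 of 6, beside 9.11%.

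Psmb8 (chr17:34198195-34201454), the interferon-inducible catalytic subunit that replaces the constitutive beta 5 subunit in the immunoproteasome, was 7.26, 7.51 and 7.85 at the lowest, median and highest 5xFAD female and 6.86, 7.13 and 7.42 in Plcg2+/- females. In males it was 6.58, 7.17 and 7.39 in 5xFAD mice and 6.63, 6.96 and 7.28 in Plcg2+/- mice. The 5xFAD females were the high group, and both pairs of genotypes overlapped. Psmb8 fell by 0.25 ± 0.094 over both sexes (adjusted p = 0.0259, 10 of 12 mice) and by 0.38 ± 0.13 in females (adjusted p = 0.021). In males the difference was -0.13 ± 0.13 (adjusted p = 0.464), and the test of the difference between the sexes did not pass (-0.25 ± 0.19, adjusted p = 0.358). The call over both sexes ended without 5xFAD female 1190 (-0.22, adjusted p = 0.0502) or without Plcg2+/- male 13 (-0.22, adjusted p = 0.0518). The call in females ended without 5xFAD female 1190 (-0.31, adjusted p = 0.0595) or without Plcg2+/- female 12 (-0.32, adjusted p = 0.0532). With log2 total count as a covariate the difference over both sexes was -0.22 (adjusted p = 0.487), and without a sex term it was -0.25 (adjusted p = 0.0775).

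The Neuropathology panel measured Psmb8 a second time in the same animals, which repeats the assay and not the mice. There the lowest, median and highest log2 values were 7.61, 7.83 and 8.08 in 5xFAD females, 7.33, 7.48 and 7.75 in Plcg2+/- females, 7.27, 7.67 and 7.86 in 5xFAD males and 7.28, 7.47 and 7.66 in Plcg2+/- males. The genotypes overlapped in both sexes, with 5xFAD females high as before. Psmb8 fell by 0.25 ± 0.074 over both sexes (adjusted p = 0.00448 over 760 genes, 11 of 12 mice), beside 71.6% of that panel's genes called in either direction (35.5% higher and 36.1% lower). Across the 24 mice, with group means removed, Psmb8 on the one panel correlated with Psmb8 on the other (Pearson r = 0.82, permutation p = 6e-05, Spearman rho = 0.79, permutation p = 9e-05, and r = 0.75 without the 2 mice farthest from the median). The median of this correlation over the 251 genes on both panels was 0.58 (quartiles 0.19 and 0.84). Of 164 and 180 such genes called on the Glial and the Neuropathology panel, 114 were called in the same direction on both and 20 in opposite directions.

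**Figure D2:**
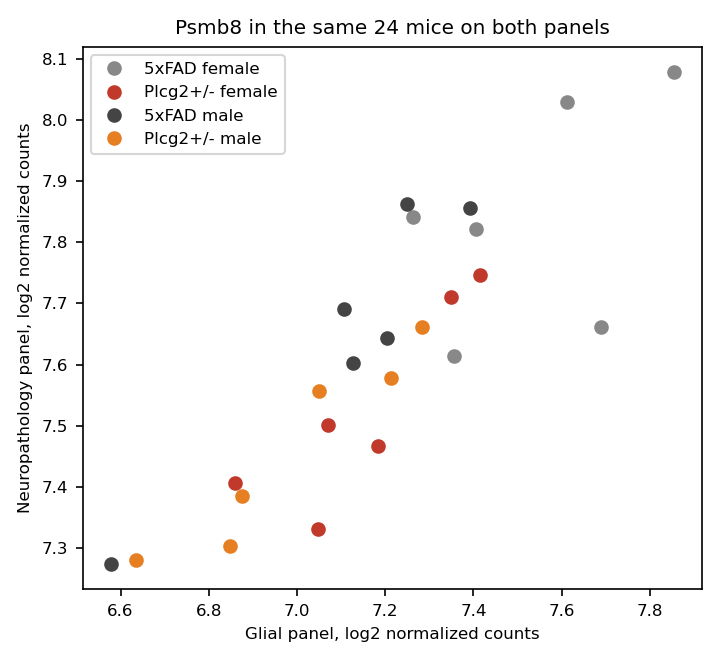
Psmb8 in each of the 24 mice, with the Glial panel's log2 normalized counts on the horizontal axis and the Neuropathology panel's on the vertical axis. Mice high on one panel were high on the other (r = 0.82 with group means removed), and the highest points are 5xFAD females.

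Psmb9 (chr17:34182030-34187330), on the Neuropathology panel alone, encodes the interferon-inducible beta 1 subunit that is built into the immunoproteasome together with the product of Psmb8. Its log2 values were 5.75, 6.05 and 6.21 at the lowest, median and highest 5xFAD female, 5.31, 5.63 and 5.91 in Plcg2+/- females, 5.74, 6.06 and 6.38 in 5xFAD males and 5.67, 5.77 and 6.04 in Plcg2+/- males. Both pairs of groups overlapped, whereas 22.8% of that panel's genes did not overlap between genotypes in females and 13.9% did not in males. Psmb9 fell by 0.32 ± 0.073 over both sexes (adjusted p = 0.000677, 12 of 12 mice), by 0.37 in females (adjusted p = 0.00474, beside 54.2% of genes called) and by 0.26 in males (adjusted p = 0.0358, beside 56.7%). With log2 total count as a covariate it fell by 0.45 (adjusted p = 0.0432), whereas Psmb8 on that panel was then at -0.40 (adjusted p = 0.0772).

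H2-D1 (chr17:35263094-35267497), a classical class I heavy chain, was 9.08, 9.25 and 9.55 at the lowest, median and highest 5xFAD female, 9.34, 9.55 and 9.64 in Plcg2+/- females, 9.17, 9.43 and 9.67 in 5xFAD males and 9.08, 9.24 and 9.50 in Plcg2+/- males. Classical class I genes have close relatives in the mouse genome and probe sequences were not used here, so counts from a relative cannot be told apart. All pairs of groups overlapped, with Plcg2+/- females and 5xFAD males toward the high end. Over both sexes the difference was 0.04 ± 0.064 (adjusted p = 0.629, 95% interval -0.10 to 0.17). In females it was 0.22 ± 0.091 (adjusted p = 0.048, 6 of 6 mice higher) and in males -0.14 ± 0.091 (adjusted p = 0.215, 5 of 6 mice lower). These differed by 0.36 ± 0.13 (adjusted p = 0.0497), the 1 of 6 genes whose genotype difference was called as unequal between the sexes, beside 21.9% of all genes. Both calls sat at the threshold: the one in females was lost on leaving out any of 14 of the 24 mice (0.17 to 0.27 over all 24) and the one between the sexes on leaving out any of 16 (0.30 to 0.41). After median centring they were 0.16 (adjusted p = 0.101) and 0.26 (adjusted p = 0.0999), and with log2 total count as a covariate 0.04 (adjusted p = 0.941) and 0.18 (adjusted p = 0.652).

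B2m (chr2:122147687-122153082), beta 2 microglobulin, pairs with every class I heavy chain named here. Its log2 values were 12.14, 12.27 and 12.63 at the lowest, median and highest 5xFAD female, 12.15, 12.36 and 12.50 in Plcg2+/- females, 11.85, 12.16 and 12.29 in 5xFAD males and 11.83, 12.00 and 12.15 in Plcg2+/- males. The genotypes overlapped in each sex. The genotype difference was -0.03 ± 0.060 (adjusted p = 0.648), with a 95% interval from -0.16 to 0.09. In females it was 0.05 (adjusted p = 0.635) and in males -0.12 (adjusted p = 0.267).

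**Figure D3:**
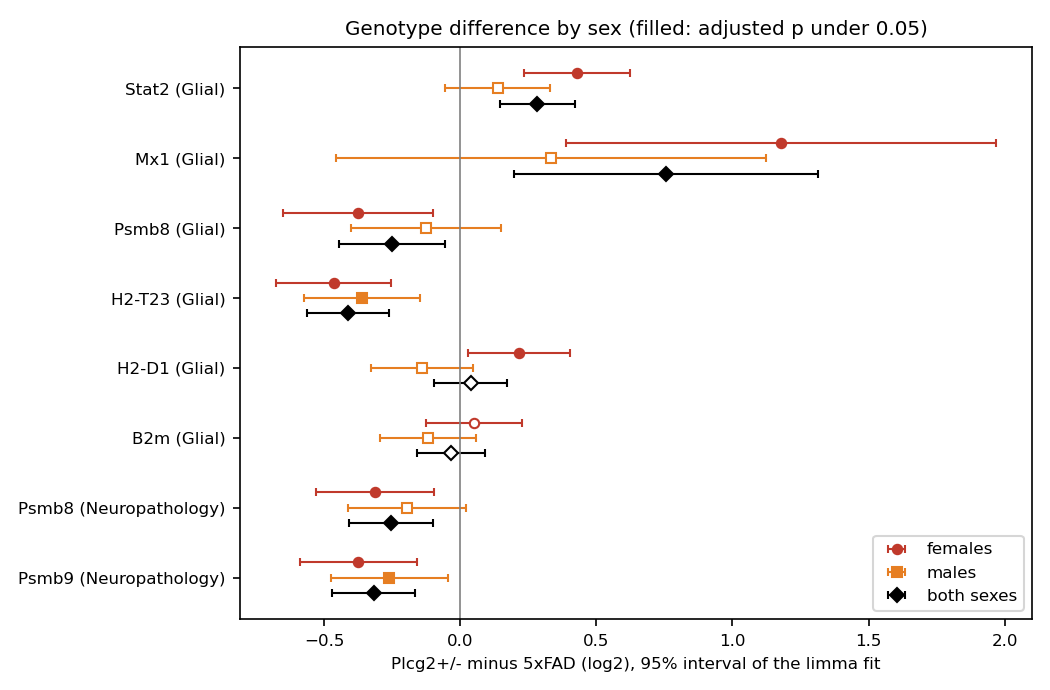
Genotype difference (Plcg2+/- minus 5xFAD, log2) of each gene in females, males and both sexes, with 95% intervals of the limma fit and filled symbols at an adjusted p under 0.05. Intervals for H2-T23 lie below 0 in females, males and both sexes, and the widest belong to the dim gene Mx1.

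B2m and its partners were also compared within each mouse, since a difference between 2 genes of a mouse does not depend on how that mouse was scaled. Relative to B2m, H2-T23 fell by 0.38 log2 units in Plcg2+/- mice (two-sided exact permutation test within sex over 853776 relabellings, p = 3.75e-05, adjusted over 5 genes p = 0.000146, 12 of 12 mice), by 0.52 in females and by 0.24 in males. Stat2 rose by 0.32 relative to B2m (exact p = 5.86e-05, adjusted p = 0.000146, 11 of 12 mice), by 0.38 in females and 0.26 in males. No test was run within a sex. Psmb8 fell by 0.22 relative to B2m (exact p = 0.0145, adjusted p = 0.021, 8 of 12 mice), which was -0.43 in females and -0.01 in males. Mx1 rose by 0.79 (exact p = 0.0168, adjusted p = 0.021, 10 of 12 mice). Mx1 is dim, and of the panel's 65 dim genes 37 were called higher and 0 lower in the limma fit. A comparison with B2m does not remove that shift. The share of all panel genes that pass relative to B2m was not computed. H2-D1 did not pass relative to B2m (0.07, exact p = 0.0927, adjusted p = 0.0927, 8 of 12 mice), but it did without 5xFAD female 1189 (0.10, adjusted p = 0.0289) or without 5xFAD male 1268 (0.09, adjusted p = 0.0292). With H2-D1 as the reference in place of B2m, H2-T23 fell by 0.45 (adjusted p = 0.000269) and Stat2 rose by 0.25 (adjusted p = 0.000574).

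The sexes differed in the level of some members. Over all 757 genes the female level less the male level had a median of -0.27, and 81.2% of genes were called (76.2% lower in females), beside 3 of the 6 members. B2m ran against this, higher in females by 0.27 ± 0.060 (adjusted p = 0.000443), as did Psmb8, higher by 0.30 ± 0.094 (adjusted p = 0.00692). After median centring these were 0.48 for B2m and 0.51 for Psmb8. Stat2 was lower in females by as much as the median gene (-0.26 ± 0.066, adjusted p = 0.00112), and after median centring the value was -0.04 (adjusted p = 0.571). For Mx1 the sex difference was -0.31 (adjusted p = 0.28), for H2-T23 -0.03 (adjusted p = 0.706) and for H2-D1 0.05 (adjusted p = 0.429). After median centring H2-T23 turned to 0.19 (adjusted p = 0.0293) and H2-D1 was 0.27 (adjusted p = 0.000535). The sex difference with log2 total count as a covariate was 0.28 for Psmb8 (adjusted p = 0.0579), -0.18 for Stat2 (adjusted p = 0.0632), -0.93 for Mx1 (adjusted p = 0.0118) and 0.31 for B2m (adjusted p = 0.00226). On the Neuropathology panel, Psmb8 was 0.13 higher in females, which did not pass (adjusted p = 0.11), beside 88.2% of genes called there.

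Correlations between pairs of the 6 genes were computed over mice of the same group. With the 4 group means removed, the deviations of H2-D1 and B2m had a Pearson r of 0.84 over 24 mice (100000 permutations within groups, adjusted over 15 pairs p = 0.0003, Spearman rho = 0.80, adjusted p = 0.00105, and r = 0.81 without the 2 mice farthest from the median). Psmb8 followed B2m (r = 0.71, rho = 0.69), H2-D1 (r = 0.62, rho = 0.59) and H2-T23 (r = 0.61, rho = 0.69), with adjusted p = 0.0027, 0.00785 and 0.0055 for r. Stat2 followed H2-D1 (r = 0.64, rho = 0.61, adjusted p = 0.00785). In all, 8 of 15 pairs passed by Pearson's r, all of them positive, and 8 passed by Spearman's rho. The share of passing pairs among all genes of the panel was not computed. Whether this count is particular to the 6 genes was therefore not tested. Mx1 was in none of the passing pairs, and its r with Stat2 was -0.50 (adjusted p = 0.0624). Each point shares its mouse's library and scaling: after centring each mouse on its median, 6 pairs passed, the pairs of H2-T23 with Stat2 (r = 0.32) and with H2-D1 (r = 0.37) no longer did, and H2-D1 with B2m was at 0.78. None of the 6 genes correlated with log2 total count within groups after adjustment, with r from -0.55 for Mx1 to 0.34 for H2-T23, and adjusted permutation p = 0.118 for both.

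**Figure D4:**
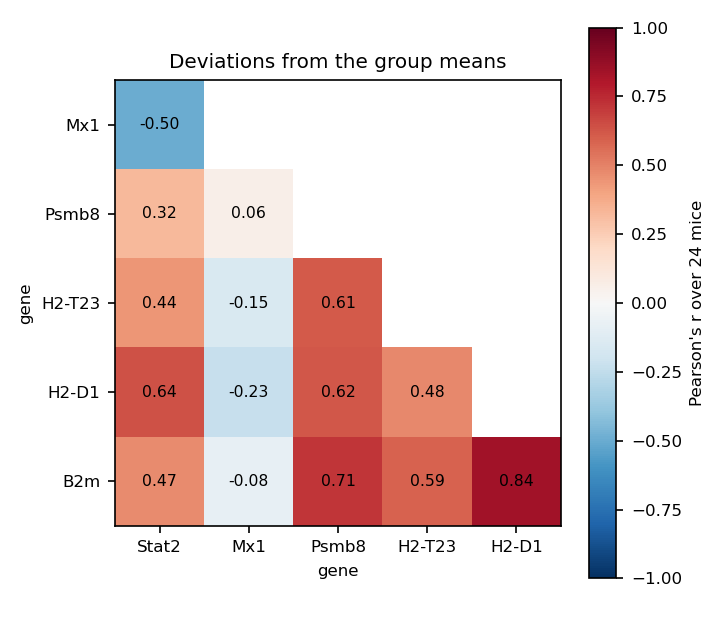
Pearson's r between the 6 genes over 24 mice after removal of the 4 group means, with red for positive and blue for negative values. The strongest cell is B2m with H2-D1 at 0.84, and the column and row of Mx1 hold values from -0.50 to 0.06.

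The genes on the panel that most resembled each member across mice, ranked by the same correlation, are given as a description. B2m and H2-D1 were each other's closest gene, followed for both by the chemokine gene Ccl3 (r = 0.84 with B2m and 0.79 with H2-D1) and then by the microglial purinergic receptor gene P2ry12 for B2m (0.74) and by Tap1 for H2-D1 (0.76). Ccl3 was also closest to Psmb8 (0.78), ahead of B2m and the interferon-stimulated gene Ifit3 (0.63). Tap1, a subunit of the peptide transporter of class I loading, was second for H2-T23 (0.73) and for Stat2 (0.72). The first for H2-T23 was the mast cell tryptase gene Tpsb2 (0.76, with a mean of 2.93 normalized counts) and the third was the receptor kinase gene Axl (0.63). For Stat2 the first was the growth factor gene Csf1 (0.73) and the third the complement receptor gene C3ar1 (0.71). Mx1 had the weakest leaders, Tnfrsf17 (0.63), the Fc receptor gene Fcgr4 (0.61) and Lamtor3 (0.54).

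Upstream in the pathway, 7 genes of interferon receptors and signal transduction were analysed on the Glial panel, and 5 rose, 1 fell and 1 did not pass, with a median difference of 0.27 beside 0.04 over all genes, of which 33.8% rose and 26.7% fell. Stat2 is 1 of the 5, and without it 4 of 6 rose. The Janus kinase genes Jak1 and Jak2 rose by 0.28 ± 0.051 (adjusted p = 8.8e-05) and 0.23 ± 0.049 (adjusted p = 0.000324). Stat3 rose by 0.29 ± 0.055 and the phosphatase gene Ptpn11 by 0.27 ± 0.041. Stat3 also passed on the Neuropathology panel (0.21 ± 0.051, adjusted p = 0.00086). The receptor subunit gene Ifnar1 fell by 0.10 ± 0.033 (adjusted p = 0.0113) and Ifngr2 was at -0.05 ± 0.058 (adjusted p = 0.469). In females 5 of the 7 rose and 0 fell, beside 34.5% and 20.3% of all genes. In males 2 rose, Jak1 and Jak2, and 2 fell, Ifnar1 and Ifngr2, beside 17.2% and 23.5%. With log2 total count as a covariate Jak1 was at 0.01 (adjusted p = 0.964) and Stat3 at 0.19 (adjusted p = 0.266), while Jak2 was at 0.41 (adjusted p = 0.00444), Ptpn11 at 0.32 (adjusted p = 0.0129) and Stat3 on the Neuropathology panel at 0.40 (adjusted p = 0.00929).

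Among 4 sensors of nucleic acid and their adaptors, the kinase gene Tbk1 rose by 0.27 ± 0.045 (adjusted p = 2.47e-05) and the TLR3 adaptor gene Ticam1 by 0.46 ± 0.11 (adjusted p = 0.000874). Thus 2 of 4 rose and 0 fell, beside 33.8% of all Glial panel genes called higher and 26.7% called lower. The RNA receptor genes Tlr3 and Tlr7 were at -0.10 and 0.07 and did not pass (adjusted p = 0.28 and 0.696). With log2 total count as a covariate Tbk1 was at 0.13 (adjusted p = 0.307) and Ticam1 at 0.17 (adjusted p = 0.636). No interferon gene of the list was among the measured genes of either panel. The only interferon regulatory factor measured, Irf8, was at 0.08 ± 0.082 on the Glial panel (adjusted p = 0.442) and -0.14 ± 0.082 on the Neuropathology panel (adjusted p = 0.135).

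Downstream, 6 interferon-stimulated genes were measured on the Glial panel, of which Mx1 rose, Psmb8 and Gbp2 fell, and 3 did not pass, with a median of 0.04. Over the whole panel 33.8% of genes rose and 26.7% fell. The 3 were Ifit1 (0.06 ± 0.14, adjusted p = 0.743), Ifit3 (0.04 ± 0.095, adjusted p = 0.716) and the immunity-related GTPase gene Igtp (0.03 ± 0.092, adjusted p = 0.774). Gbp2, a guanylate-binding protein induced by interferon gamma, fell by 0.27 ± 0.11 (adjusted p = 0.041, 7 of 12 mice) at a mean of 21.2 normalized counts. This came with a difference of -0.55 ± 0.16 in males (adjusted p = 0.00963) and 0.01 ± 0.16 in females (adjusted p = 0.979), and the sexes were not called as unequal (adjusted p = 0.0774). The call over both sexes was lost on leaving out any of 13 of the 24 mice (-0.33 to -0.23 over all 24). On the Neuropathology panel the interferon-induced chemokine gene Cxcl10 rose by 0.63 ± 0.19 (adjusted p = 0.00656, 12 of 12 mice), and Sp100 was at -0.06 ± 0.12 (adjusted p = 0.658). With log2 total count as a covariate Cxcl10 was at 0.27 (adjusted p = 0.669).

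In class I presentation, 5 genes were measured on the Glial panel and 0 rose, 2 fell (H2-T23 and Psmb8) and 3 did not pass, with a median of -0.03. The panel's own shares were 33.8% higher and 26.7% lower. Tap1 was 6.15, 6.45 and 6.77 at the lowest, median and highest 5xFAD female and 5.87, 6.61 and 6.84 in Plcg2+/- females, and its difference over both sexes was 0.02 ± 0.10 (adjusted p = 0.899, 95% interval -0.20 to 0.23). Of 3 genes of MHC class II presentation, the costimulatory receptor gene Cd40 rose by 0.38 ± 0.12 (adjusted p = 0.00875) and the invariant chain gene Cd74 (0.06 ± 0.20) and the protease gene Ctss (0.02 ± 0.077) did not pass. Cd40 also rose on the Neuropathology panel, by 0.58 ± 0.10 (adjusted p = 4.79e-05) as a dim gene there, and it was at 0.09 after quantile normalization on the Glial panel (adjusted p = 0.535).

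**Figure D5:**
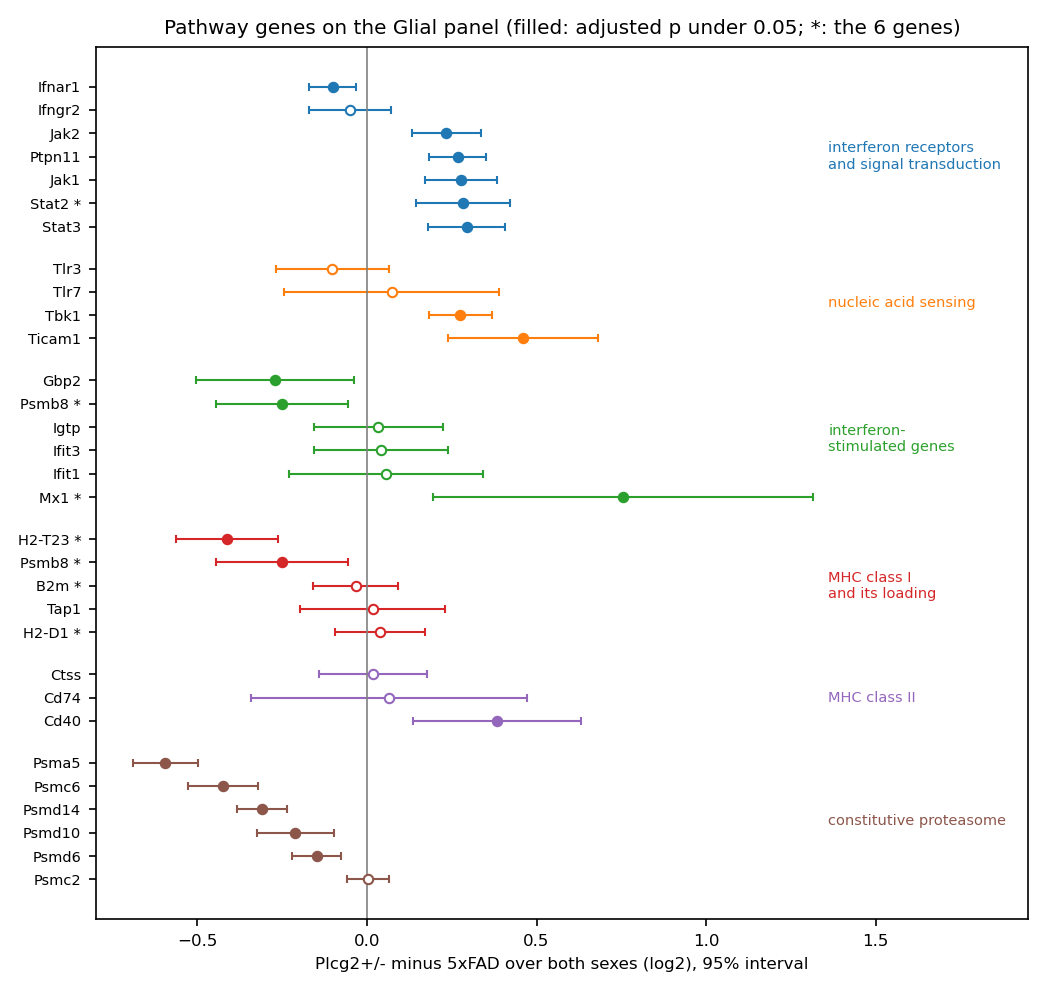
Genotype difference over both sexes (log2, with 95% interval) of the pathway genes on the Glial panel by list, filled at an adjusted p under 0.05 and with a star on the 6 genes. In the list of receptors and signal transduction 5 of 7 genes are filled to the right of 0, and in that of the constitutive proteasome 5 of 6 are filled to the left.

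Genes listed here as the constitutive proteasome, the housekeeping form of the protease, also differed. None of those measured encodes a standard beta subunit, whose place Psmb8 and Psmb9 take. The list therefore does not measure the housekeeping form apart from the immunoproteasome. Of 6 measured genes 0 rose, 5 fell and 1 did not pass, with a median of -0.26, beside 26.7% of all panel genes called lower. In females 6 of 6 fell (median -0.47), beside 20.3% of all panel genes. In males 1 rose, 2 fell and 3 did not pass (median -0.05), beside 17.2% higher and 23.5% lower. The 20S core subunit gene Psma5 fell by 0.59 ± 0.047 (adjusted p = 1.75e-09) and the 19S ATPase gene Psmc6 by 0.43 ± 0.050 (adjusted p = 3.88e-07). The smallest called fall was 0.15 in Psmd6, and Psmc2 was at 0.00 ± 0.030 (adjusted p = 0.944). Lower Psmb8 was therefore measured together with lower levels of most of these genes, and the part of one in the other was not tested.

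Psmb8, Psmb9, Tap1, H2-D1 and H2-T23 lie in the MHC on chromosome 17. Of the 9 Glial panel genes between Tapbp and Mog there, 1 rose, 5 fell and 3 did not pass, with a median of -0.15. On the whole Glial panel 33.8% of genes rose and 26.7% fell. Besides H2-T23 and Psmb8, the microglial gene Aif1 fell by 0.77 ± 0.099, the proton pump subunit gene Atp6v1g2 by 0.27 ± 0.038 and Trim26 by 0.15 ± 0.055. Tnf, a dim gene, rose by 0.45 ± 0.15, but was at -0.12 after quantile normalization (adjusted p = 0.509) and did not pass without a sex term (0.45, adjusted p = 0.133), and Mog was at -0.02 ± 0.048. On the Neuropathology panel Aif1 was dim and went the other way (0.71 ± 0.25, adjusted p = 0.0155, mean 13.1 normalized counts). There, of 11 genes of this region 5 rose and 6 fell, beside 35.5% and 36.1% of all genes of that panel. Of these 11 genes 4 were dim, namely Aif1, Tnf, Ager and Notch4, and all 4 were among those that rose.

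Cell type markers were read beside the members. For comparison, 33.8% of all Glial panel genes rose and 26.7% fell over both sexes (34.5% and 20.3% in females). Of 12 microglial markers 2 rose, 5 fell and 5 did not pass, and their summed normalized counts were 15063 to 21159 in 5xFAD females, 15395 to 19021 in Plcg2+/- females, 14029 to 18648 in 5xFAD males and 12302 to 16864 in Plcg2+/- males, with overlap in both sexes. Of 8 neuronal markers 5 rose and 1 fell (6 rose and 0 fell in females). Their sums were 35951 to 44573 in 5xFAD females and 45271 to 53763 in Plcg2+/- females, without overlap, and overlapped in males (54872 to 57282 and 53555 to 67191). Of 6 astrocyte markers 3 rose and 1 fell, with sums of 28497 to 32499 and 31169 to 37243 in females and 32480 to 37228 and 33026 to 39594 in males. Of 7 oligodendrocyte markers 2 rose and 1 fell, with sums that overlapped in both sexes, from 21471 to 31244 over all mice. Of 14 markers of T cells and cytotoxic lymphocytes, nearly all of them dim, 9 rose and 0 fell, beside 37 of 65 dim genes of the panel higher and 0 lower, and their sums were 219 to 303 and 305 to 339 in females and 311 to 393 and 368 to 537 in males. Of 5 endothelial markers 0 rose and 3 fell. In males 0 rose and 4 fell, beside 23.5% of all Glial panel genes called lower there, and in females 1 rose and 1 fell. Their sums overlapped in females (476 to 712 and 438 to 634) and did not overlap in males (863 to 1121 and 554 to 751). Of 3 B cell markers, all dim, 2 rose and 0 fell. Of 2 dendritic cell markers 1 rose and 0 fell, and the 1 marker of border macrophages and monocytes rose. The lowest recovered count of any gene on the Glial panel was 1, so the absence of 0 among the markers does not show detection. The part of these cell types in the differences of the 6 genes was not tested.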

How the data were processed

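The authors deposited log2 normalized counts for 757 genes on the Glial panel and 760 on the Neuropathology panel in the same 24 animals. Per the labels' protocols, total RNA was prepared with a Purelink kit and run with the standard NanoString procedure, and the normalization tool is not given in the sources used here. The panel of a sample was taken from its title, because the description of the Glial samples names the other panel. Divided by 1 factor per mouse, 100% of values came within 0.05 of a whole number, which gave counts of 1 to 63094 on the Glial panel. Of 757 gene names, 752 matched RefSeq symbols and 5 did not.

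Groups were genotype by sex, with 6 mice each, and where the labels do not say that samples are separate preparations the spread may be partly technical. All genes, without a filter, entered a limma model of 4 group means (version 3.58.1, under R 4.3.3), with moderated tests of the contrasts. Differences within a mouse were tested by exact permutation within sex, and correlations by 100000 permutations within groups (Python 3.11.15, numpy 2.4.6). The fit was tested on simulated data. The 6 genes and the gene lists were chosen with earlier results of these data known, and 1 gene of the list of receptors and signal transduction is not reported here. Members of each list were named where called or where they share a complex or receptor with one of the 6, and the 3 genes of highest correlation were named for each of the 6. Other settings tried were total count as a covariate, voom on recovered counts, a floor of 20, array weights, quantile normalization, centring on the median, a trended and robust prior, omission of dim genes, no sex term, each sex alone, and leaving out mice. Counts limit precision most for Mx1, with 2 to 21 barcodes per mouse.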

Additional observations from a re-analysis of the deposited data

Results flagged for a closer look

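In 3 of 32 groups of 6 mice, 1 mouse stood apart from the others by Dixon's criterion at the 95% level, which chance meets in about 1 in 20 groups. Psmb8 on the Glial panel was lowest in 5xFAD male 1182, at 6.58 on the log2 scale. B2m on the Glial panel was highest in 5xFAD female 1248, at 12.63. Psmb9 on the Neuropathology panel was highest in Plcg2+/- male 3, at 6.04.

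The genotype difference of H2-D1 was called as unequal between the sexes by the interaction term of the limma fit, with the female difference 0.36 ± 0.13 log2 units above the male one (adjusted p = 0.0497), 6 of 6 Plcg2+/- females higher and 5 of 6 Plcg2+/- males lower. Of all Glial panel genes 21.9% were called so. The call sat at the threshold and was lost on leaving out any of 16 of the 24 mice. After median centring the value was 0.26 (adjusted p = 0.0999), and with log2 total count as a covariate 0.18 (adjusted p = 0.652).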

How the results depend on the processing

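The fall of H2-T23 kept its direction and call over both sexes, in females and in males under all alternatives run, and it ranged from -0.44 to -0.36 over both sexes on leaving out each mouse. The calls of B2m between the sexes, of Psmb9, Jak2, Psma5, Psmc6, Psmd14 and Glial Aif1 over both sexes, and of H2-T23, Stat2, Mx1 and Psmb8 relative to B2m, were also kept under all alternatives run for them. Those relative to B2m were run only with each mouse left out and with H2-D1 as the reference. Total count as a covariate, quantile normalization and a floor of 20 were not run for them. The genotype calls of Stat2, Mx1, Psmb8 and H2-D1 depended on at least 1 setting, and the cause was not tested. Adding log2 total count, which does not overlap between genotypes in females, left 116 called genes in place of 458. It gave Stat2 0.12 over both sexes (adjusted p = 0.579), 0.11 in females and -0.029 for the female less the male difference. Psmb8 was then at -0.22 over both sexes, -0.31 in females and -0.40 on the Neuropathology panel (adjusted p = 0.0772). H2-D1 was at -0.049 over both sexes, 0.043 in females and 0.18 between the sexes, B2m at -0.12 in females, Mx1 at 3.28 between the sexes (adjusted p = 0.0137), and the sex difference of H2-T23 at 0.068. Gbp2 was at 0.030 and Tap1 at -0.16. Quantile normalization gave Mx1 0.060 over both sexes, 0.35 in females, -0.23 in males and 0.30 between females and males, Psmb8 -0.49 between the sexes' genotype differences (adjusted p = 0.0326), H2-D1 0.20 in females (adjusted p = 0.0532) and 0.31 between the sexes, the sex difference of H2-T23 0.17, Tap1 -0.034 and Tnf -0.12. Median centring gave H2-D1 0.16 and 0.26, B2m -0.010 in females, the sex difference of H2-T23 0.19, and the correlation of Mx1 with B2m 0.055. With values below 20 raised to 20, Mx1 was at 0.020 over both sexes, 0 in females and -0.039 between the sexes, and H2-D1 at 0.22 in females (adjusted p = 0.0527), which was also its value with each sex fitted alone (adjusted p = 0.0505). Array weights gave Stat2 0.20 in males (adjusted p = 0.048) and the sex difference of H2-T23 0.00056. With voom, B2m was at 0.00084 over both sexes and the sex difference of H2-T23 at 0.22, and without Plcg2+/- female 12 and male 3 that sex difference was 0.021. Without a sex term Psmb8 was at -0.25 (adjusted p = 0.0775).

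On leaving out each mouse, Psmb8 ranged from -0.30 to -0.22 over both sexes and from -0.43 to -0.31 in females, H2-D1 from 0.17 to 0.27 in females and from 0.30 to 0.41 between the sexes, H2-D1 relative to B2m from 0.058 to 0.095, the sex difference of H2-T23 from -0.058 to 0.022 and Tap1 from -0.025 to 0.081. Mx1 has no value without dim genes, since it is one. No paired analysis was possible because the genotype groups share no animal numbers; a number links only the panels of 1 mouse. The 6 mice per group, the recovered totals and, for Mx1, the count of barcodes limit the precision.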
